A study of Oryza sativa with 12 samples.

Results

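The genes described here are rice cyclins of types A, B and D, cyclin-dependent kinases of types A and B, subunits of the MCM helicase and of the origin recognition complex (ORC), the replication clamp PCNA, and histones H2A and H2B. They were chosen by name: a gene was a member if its symbol or a synonym in the RefSeq gene table, read without a leading Os, began with CYCA, CYCB, CYCD, CDKA, CDKB, MCM, ORC, PCNA, H2A or H2B and went on with digits, dots or hyphens alone. The rule found 48 genes, of which 38 were paired with at least 1 probe set, 47 probe sets in all, out of 17905 genes paired with a probe set on the array. No gene carried an H2A name of this form, so the histones described are all H2B.

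Soil-grown rice seedlings with 4 leaves gave 12 samples of shoot and leaf RNA, each read on its own GeneChip array. In the cultivar ZH11, OE lines 2 and 28, which overexpress OsMYB30, were set beside a ZH11 control line. In the cultivar Huayang, 2 independent homozygous osmyb30 mutants, called mutant 1 and mutant 2 below, were set beside the Huayang wild type. Each of these 6 lines was sampled after 6 h in a chamber at 4 °C and before it, which gave 2 arrays at a time for OE and for osmyb30, and 1 for the ZH11 control and for the wild type. The promoter that drives OsMYB30, the kind of mutation and the number of seedlings behind a sample are not given in the sources used here, and OsMYB30 itself was not analysed here. No unchilled samples taken 6 h later were analysed here, so cold and the passing of 6 h cannot be told apart.

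Cells enter S phase when D-type cyclins bound to CDKA release the genes of DNA replication. ORC marks the origins and the MCM proteins load on them as the helicase, PCNA holds the polymerases on the template, and histones such as H2B are made to wrap the new DNA. A-type cyclins act from S phase onward, and B-type cyclins with the plant-specific kinase CDKB drive entry into mitosis. In a grass leaf, division is kept to the meristem and the leaf base, while most of a grown blade no longer divides.

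Intensities are given as deposited, on a linear scale. Differences are of log2(intensity + 16) after quantile normalization, a scale that understates the change of dim genes, with the standard error (SE) from limma. A gene enters with its brightest probe set, and a call is a Benjamini-Hochberg adjusted p below 0.05 over all 34355 probe sets tested. Readings of probe sets for different genes are not ranked against each other, since probe sets differ in how brightly they bind. The p-values rest on the spread between arrays of the same group and time. In the genotype comparisons the ZH11 control and Huayang wild type, with 1 array at a time, are taken to vary like the rest. For means of both times, the arrays of a line before and after cold were counted as independent. A line's deviations from its group means correlated at 0.517 in OE lines and 0.429 in osmyb30, so those p-values can be too small. With line as a random block, calls over all probe sets fell from 1395 to 425 for OE minus ZH11 control. They fell from 9 to 4 for osmyb30 minus wild type, and from 5696 to 3790 for ZH11 minus Huayang lines.

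The first principal component of the arrays held 45.5% of the variance and the second 33.0%. Their relation to time and cultivar was not tested. Array medians lay between 34.7 and 37.2, and no 2 arrays held identical values. Of the 6 green leaf genes paired with a probe set, the summed reading was 67513 to 69765 on the 12 arrays. The sum over 5 root genes was 971.1 to 2281.2. The array also carries 64 reporter probe sets for foreign marker genes, 62 of them dim. One of the other 2 read 11860.8 to 12539.4 in the OE lines and 64.3 and 18.6 in the ZH11 control (after and before cold). The same probe set read 13835.2 to 17781.9 in osmyb30 and 3821.8 and 2658.5 in the Huayang wild type, in the same order. The other bright reporter read 7940.3 to 10805.7 in the OE lines and 25.8 to 113.5 on the remaining arrays, with 31 and 42.1 in the Huayang wild type after and before cold. The library labelled Huayang wild type therefore read the first of these markers well above the dim range at both times, and calls for cold and cultivar that are lost without it are named with their genes.

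The highest reading among the dim reporters, 73.9, is used as a limit for dim readings. Of the 38 measured genes, 19 read at or below it on every array, 14 read above it on every array, and 5 lay on both sides. The 5 H2B genes ranged from 287.6 to 4649.2 over genes and arrays. CDKA-1 and CDKA-2 ranged from 202.5 to 719.2, and PCNA from 146.5 to 213.5. The B-type cyclins ranged from 11.4 to 119.7 and the MCM genes from 6.7 to 146.9. MCM9 was the only MCM gene above the limit on every array. Of the genes named as markers of dividing cells, H2B.6 was bright, CDKB2-1 and CYCB1-1 lay near the limit, and MCM4 and MCM5 lay below it on all 12 arrays. In 30 genes the brightest probe set passed the filter on low values, 33 probe sets with the others of the same genes, and 8 genes did not pass. Of the 30, 11 were dim on all 12 arrays.

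**Figure D1:**
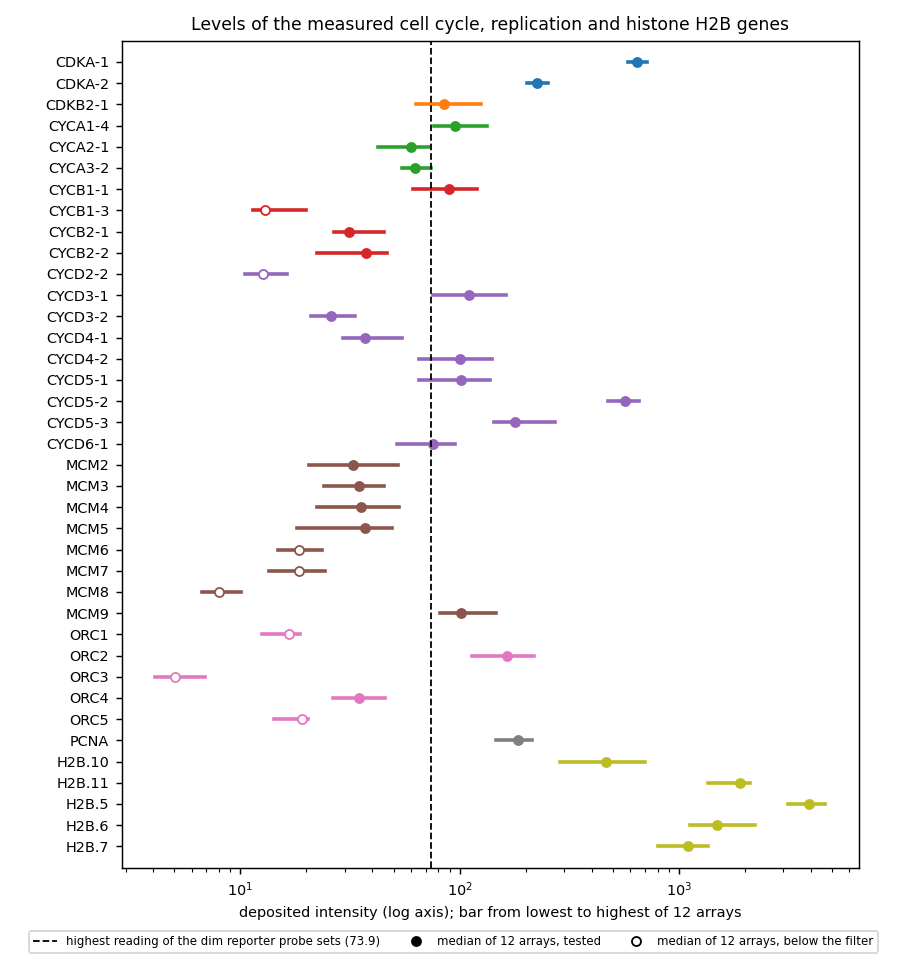
Deposited intensity (log axis) of the 38 measured genes, coloured by family; each bar runs from the lowest to the highest of the 12 arrays, and the point is the median. The dashed line at 73.9 is the highest reading of the dim reporters: the H2B genes lie far to its right, and most MCM, ORC and B-type cyclin genes lie to its left.

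The first question was how 6 h of cold changed these genes in all 6 lines. All 5 measured H2B genes and ORC2 fell, by 1.32-fold to 1.57-fold, and CDKB2-1, CYCD5-3 and CYCD6-1 rose, with no overlap between the 6 chilled and the 6 unchilled arrays for any of the 9. CYCD3-1 and CYCD3-2 were called lower with adjusted p close to the threshold. In all, 11 of the 30 tested genes were called in limma, 3 higher and 8 lower, where 34.1% of all probe sets tested were called, 14.2% higher and 19.9% lower. The share of members called, 11 of 30, thus lay near that of the array as a whole. The median of the 30 genes was -0.13, and that of all probe sets was 0.01. In these whole tissues, fewer cells of a type and less RNA per cell cannot be told apart.

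H2B.6 (LOC4324502), a core histone of the nucleosome, read 1127.7, 1199 and 1229 (lowest, median and highest of 6 arrays) after cold, against 1760.4, 1829.1 and 2232.8 before. The highest chilled array lay well below the lowest unchilled one, and the drop was seen in 6 of 6 lines. The log2 difference was -0.65 (SE 0.06), a 1.57-fold drop, with adjusted p = 4.58e-06 in limma.

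H2B.10 (LOC4324495) read 287.6, 387.95 and 436.9 after cold, against 496.8, 587.65 and 700.6 before, a difference of -0.55 (SE 0.09, limma adjusted p = 0.000395). H2B.5 (LOC4324504) read 3153.5, 3282.3 and 3673.8 after cold, against 4179.7, 4359.4 and 4649.2 before, a difference of -0.41 (SE 0.05, limma adjusted p = 3.69e-05). In both genes all 6 lines moved the same way, and the 2 sets of arrays did not overlap. H2B.11 (LOC4327384) read 1354.1, 1542 and 1781.5 after cold, against 2029.1, 2056.6 and 2123.1 before, a difference of -0.40 (SE 0.05, limma adjusted p = 6.96e-05). H2B.7 (LOC4324500) read 800.8, 924.55 and 1040.5 after cold, against 1164.5, 1295.5 and 1357.4 before, a difference of -0.40 (SE 0.07, limma adjusted p = 0.000645). These too were lower in each of the 6 lines.

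The H2B genes are close relatives, and the array may not part them. H2B.5, H2B.6, H2B.7 and H2B.10 lie, with H2B.3 and H2B.4, in a run of 38 genes of the RefSeq annotation, and the other 5 H2B genes of the rule, H2B.3 and H2B.4 among them, were paired with no probe set. The probe set for H2B.7 is of a type whose probes can bind other transcripts. Which H2B genes stand behind each reading is therefore uncertain, and the 5 drops are not 5 independent results. The size of the drop varied by line: for H2B.5 the log2 change was -0.19 in OE line 2, -0.35 in OE line 28, -0.55 in the ZH11 control, -0.48 and -0.46 in osmyb30 mutants 1 and 2, and -0.43 in the Huayang wild type. For H2B.6 it was -0.52, -0.65, -0.86, -0.67, -0.64 and -0.55 in the same order.

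ORC2 (LOC4331860), a subunit of the complex that marks replication origins, had the smallest adjusted p among the members' brightest probe sets. It read 113.4, 120.7 and 129.4 after cold, against 199.9, 210.85 and 217.7 before. The lines lay close together at both times, and the log2 change ran from -0.65 to -0.52 over the 6 lines. The fitted difference was -0.60 (SE 0.05), a 1.52-fold drop, with adjusted p = 1.05e-06 in limma. The other ORC gene tested, ORC4, was dim on all arrays, with 26.4, 31.35 and 38.7 after cold, against 30.1, 40.9 and 45.5 before. Its difference of -0.20 (SE 0.10) was not called in limma (adjusted p = 0.14) and was called with line as a random block (adjusted p = 0.0255).

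CDKB2-1, CYCD5-3 and CYCD6-1 moved the other way. CDKB2-1 (LOC4346016), a mitotic kinase, read 89, 103.1 and 125.7 after cold, against 63.1, 71.45 and 80.5 before. All 6 chilled arrays lay above the 6 unchilled ones, of which 5 were at or below the dim limit. Its log2 difference was 0.52 (SE 0.08, limma adjusted p = 0.000435), 1.44-fold, or 1.37-fold with readings below the limit raised to it. CYCD5-3 (LOC4331985), a D-type cyclin, read 185.2, 206 and 273.6 after cold, against 143, 154.75 and 171.2 before. The highest of its chilled arrays was osmyb30 mutant 1, at 273.6. Its difference was 0.53 (SE 0.08, limma adjusted p = 0.000229), 1.45-fold. CYCD6-1 (LOC4343569), whose namesake in Arabidopsis acts in formative divisions of the root, read 87.1, 88.35 and 95.1 after cold, against 51.9, 59.6 and 64.1 before. It was at or below the dim limit on the 6 unchilled arrays and above it on the 6 chilled ones, so it was at least 1.2-fold higher after cold, with a fitted difference of 0.53 (SE 0.06, limma adjusted p = 1.74e-05).

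Both of the remaining called genes were D-type cyclins with overlapping groups. CYCD3-1 (LOC4340499) read 75.9, 98.8 and 121.2 after cold, against 108.8, 126.05 and 163.3 before (difference -0.28, SE 0.10, limma adjusted p = 0.0463). After normalization it was lower in 5 of 6 lines, osmyb30 mutant 2 being the exception. CYCD3-2 (LOC4346394), in the dim range throughout, read 20.9, 23.45 and 32.4 after cold, against 24.9, 29.75 and 33.3 before (difference -0.19, SE 0.06, limma adjusted p = 0.0422). CYCD3-1 lost its call in 11 of 21 other settings, and CYCD3-2 in 11 of 20. Among them, leaving out osmyb30 mutant 1 before cold gave an adjusted p of 0.0916 for CYCD3-1 and 0.0963 for CYCD3-2. Leaving out both Huayang wild type arrays gave 0.097 for CYCD3-1.

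CYCD5-2 (LOC4352668), the D-type cyclin with the brightest probe set, read 474.5, 523.2 and 568.6 after cold, against 569.1, 592.15 and 658.4 before. The deposited readings did not overlap, but after quantile normalization the difference was -0.13 (SE 0.05) and was not called in limma (adjusted p = 0.0817). It was called on the values as deposited (-0.20, adjusted p = 0.0252), after median centring (-0.22, adjusted p = 0.0273) and with line as a random block (adjusted p = 0.0195). CDKA-2 (LOC4328135) likewise read 202.5, 208 and 222.8 after cold, against 229.6, 239.5 and 252.2 before. Its difference was -0.05 (SE 0.05, limma adjusted p = 0.485) after quantile normalization, -0.17 (adjusted p = 0.0185) as deposited and -0.19 (adjusted p = 0.015) after median centring. CDKA-1 and PCNA were called lower under the same 2 scalings and not after quantile normalization.

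CDKA-1 (LOC4331415), the main kinase partner of the D-type cyclins, read 589.7, 606.95 and 661.4 after cold, against 631.9, 683.6 and 719.2 before (difference -0.08, SE 0.06, limma adjusted p = 0.289). PCNA (LOC4331062) read 146.5, 164 and 196.4 after cold, against 172.3, 201.6 and 213.5 before (difference -0.12, SE 0.08, limma adjusted p = 0.283). Both sets of readings overlapped. A probe set of CDKA-2 that was dim on 11 of 12 arrays, one of 3 tested for this gene, differed in size from the brightest: it read 21.4, 26 and 27.1 after cold, against 61.7, 65.35 and 80.7 before, a difference of -1.03 (SE 0.06, limma adjusted p = 6.84e-08). Raised to the dim limit, that difference was -0.01. The third CDKA-2 probe set gave 0.07 (SE 0.06) and was not called.

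The helicase markers were lower without a call. MCM4 (LOC107275673) read 22.3, 33.7 and 41.5 after cold, against 25.4, 37.3 and 52.7 before, a difference of -0.20 (SE 0.11, limma adjusted p = 0.176). MCM5 (LOC4331016) read 18.2, 33.45 and 37.9 after cold, against 29.5, 37.8 and 49.2 before, a difference of -0.22 (SE 0.10, limma adjusted p = 0.113). Each was lower in 6 of 6 lines, and all readings were in the dim range. The sampled line pairs the arrays, and with it as a random block MCM4 (adjusted p = 0.0397), MCM5 (adjusted p = 0.0327) and MCM2 (adjusted p = 0.0317) were called lower. The count over all probe sets with that block in all lines is not given here. The 3 A-type and 3 B-type cyclins tested were not called, with differences from -0.13 to -0.05 in the A type and from -0.13 to 0.03 in the B type. CYCB1-1 (LOC4327547), a mitotic cyclin, read 61.3, 84.65 and 119.7 after cold, against 64.6, 89.75 and 105.8 before, and overlapped (difference 0.03, SE 0.16). CYCA1-4 (LOC4338177), the A-type cyclin with the brightest probe set, read 76.1, 91.45 and 104.2 after cold, against 91, 104.35 and 133 before (difference -0.13, SE 0.08, limma adjusted p = 0.237).

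**Figure D2:**
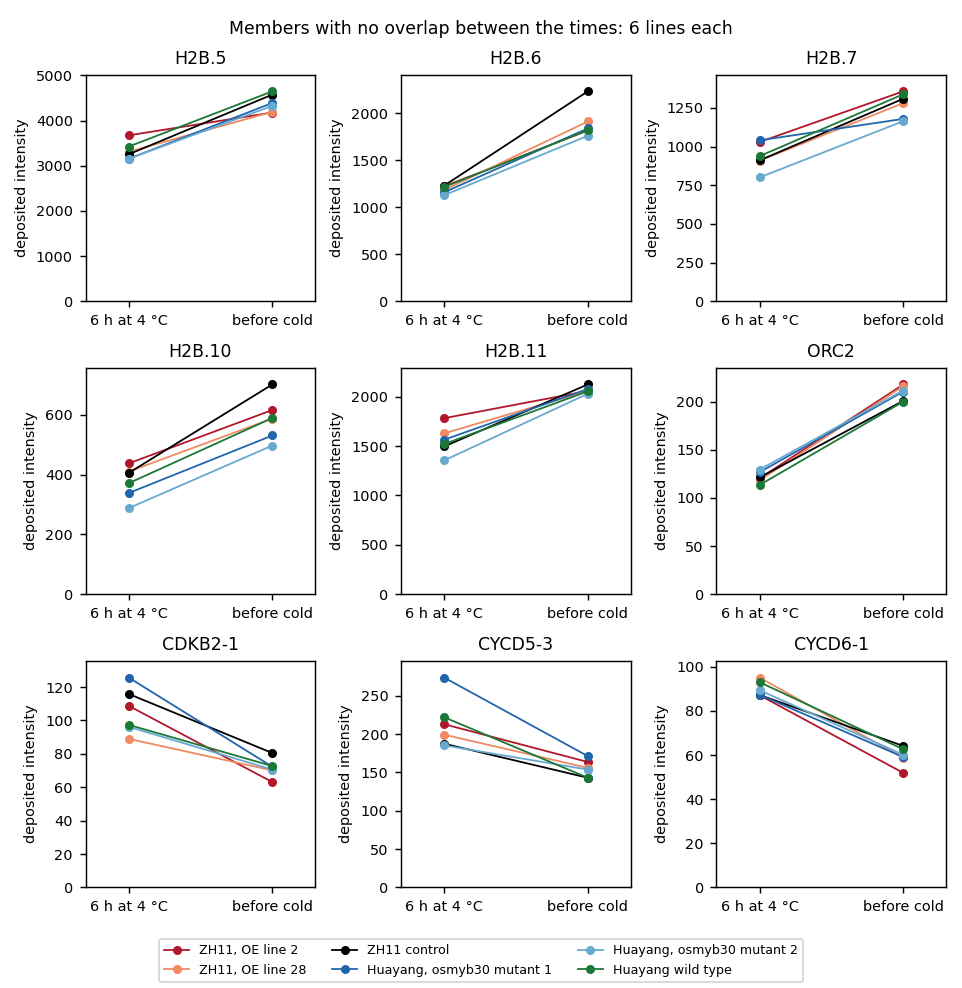
Deposited intensity (axes from 0) of the 9 genes whose chilled arrays did not overlap the unchilled ones, with 1 point per array and a line joining the arrays of each of the 6 plant lines. All 6 lines are lower at 6 h at 4 °C than before cold in the 5 H2B genes and ORC2, and all 6 are higher in CDKB2-1, CYCD5-3 and CYCD6-1.

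Of the 30 genes, 6 (20%) had every chilled array below every unchilled one, against 8.93% of all probe sets tested. All of the 6 except ORC2 were H2B genes, whose readings the array may not part, so this share does not count independent genes. In the other direction it was 3 genes (10%), against 6.1%. These shares were read after quantile normalization. The call of the H2B genes, ORC2, CDKB2-1, CYCD5-3 and CYCD6-1 in all lines held in each of 21 other settings, the one without both Huayang wild type arrays included.

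Taken for each cultivar, without line as a block, the same 9 genes were called. Both comparisons came from a single fit of all 12 arrays and share its estimate of the spread. In the 3 ZH11 lines, 9 of 30 genes were called, 3 higher and 6 lower, where 20% of all probe sets were (7.46% higher and 12.6% lower). In the 3 Huayang lines it was also 9 genes, 3 higher and 6 lower, where 19.3% were (7.25% higher and 12% lower). H2B.6 fell by 0.68 (SE 0.08) in ZH11 and by 0.62 (SE 0.08) in Huayang on the log2 scale. CDKB2-1 rose by 0.53 (SE 0.12) in ZH11 and by 0.51 (SE 0.12) in Huayang. With line as a random block, which keeps these calls, 4 more genes were called lower in ZH11 lines: CYCD3-1 (adjusted p = 0.0136), CYCA1-4 (adjusted p = 0.0475), CYCD4-2 (adjusted p = 0.0103) and CYCD5-2 (adjusted p = 0.0178). In Huayang lines that block added none. Over all probe sets it called 6970 lower in ZH11 lines and 6210 in Huayang lines, against 4312 and 4129 without a block. A fixed block also added MCM4 (adjusted p = 0.0359) and ORC4 (adjusted p = 0.0163) in ZH11 lines, and MCM2 (adjusted p = 0.0443) in Huayang lines. Over all probe sets the fixed block called 6915 lower in ZH11 lines and 6169 in Huayang lines. None of the members passed the test of the difference in cold response between ZH11 and Huayang lines in limma, where 0.102% of all probe sets did, and 1 of the 30 (CYCD4-2) had an unadjusted p under 0.05. With either block the members' count for that difference was also 0. CYCD5-3 in the ZH11 lines was not called on the values as deposited (adjusted p = 0.0684) or after median centring (adjusted p = 0.107). H2B.7 in the Huayang lines was not called without osmyb30 mutant 2 after cold (adjusted p = 0.0506), without the wild type before cold (adjusted p = 0.0698) or without both wild type arrays (adjusted p = 0.0922).

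**Figure D3:**
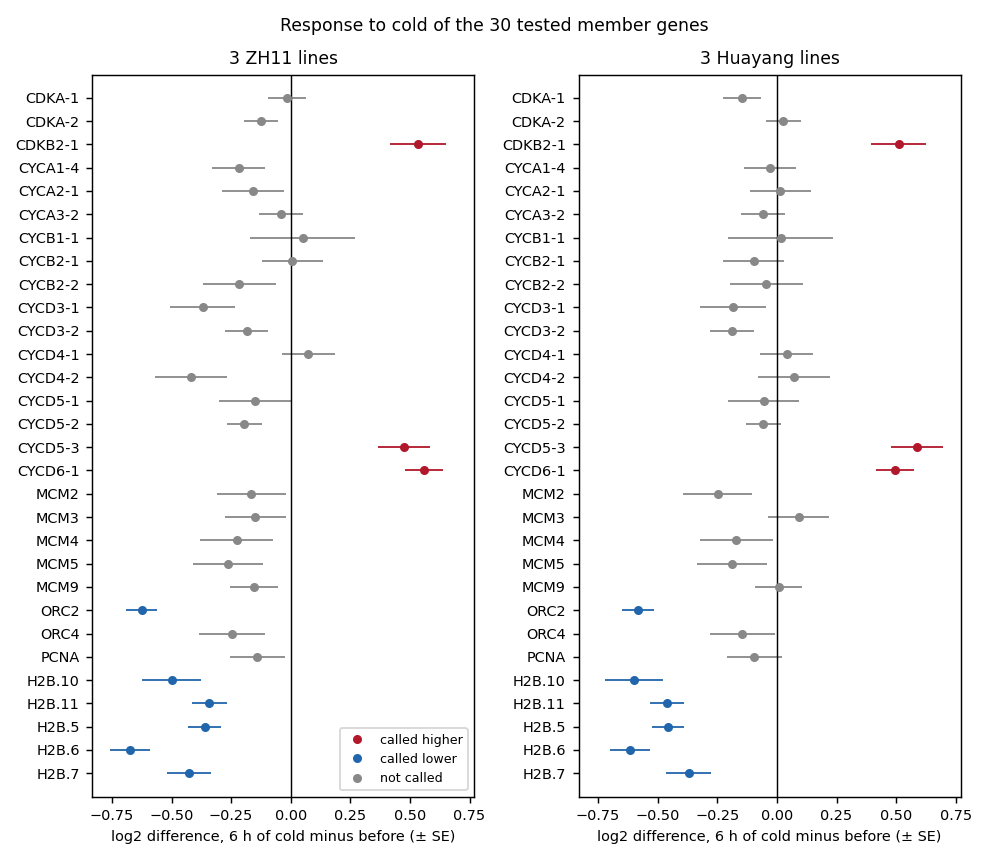
Log2 difference, 6 h of cold minus before cold, with its SE, for the 30 tested genes in the 3 ZH11 lines (left) and the 3 Huayang lines (right). Red points were called higher, blue points lower and grey points not called; the same 3 red and 6 blue genes stand in both panels, which were fitted without line as a block.

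Other genes of the same pathways were read from lists of names. Of 24 other cell cycle regulators tested, 6 were called higher and 7 lower after cold, with a median difference of 0.04. EL2, a rice inhibitor of cyclin-dependent kinases, was higher by 3.81 (SE 0.06, limma adjusted p = 9.05e-13). CDKG-1 rose by 0.76 (SE 0.05), and the P-type cyclins CYCP2-1 and CYCP4-1 fell by 0.99 (SE 0.09) and 0.80 (SE 0.16). Of 14 other replication genes, 1 was called higher and 4 lower, with a median of -0.02. RPA32, a subunit of the protein that coats single-stranded DNA, fell by 0.65 (SE 0.12, limma adjusted p = 0.0012), and RFC5, of the complex that loads PCNA, fell by 0.31 (SE 0.06, limma adjusted p = 0.00249).

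Markers of other tissue states moved with the cold as well. Of 17 expansin genes, which loosen the walls of growing cells, 10 were called lower and 0 higher, with a median of -0.33. The sum over the 25 expansin genes paired with a probe set was 9254.8 to 13412 after cold, against 14240 to 20224 before. Of 23 housekeeping genes, 9 were called lower, with a median of -0.12, and of 5 green leaf genes tested 1 was lower, with a median of -0.01. Of 15 genes listed for young tissue by family name alone (KNOX and GRF), 3 were higher and 2 lower, with GRF1 higher by 2.06 (SE 0.08). Whether each of them marks young tissue was not tested. Of 5 root genes, 3 were lower. Their part in the members' changes was not tested.

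The next question was how OE lines differed from the ZH11 control. CYCB1-1, a cyclin of mitotic entry, was lower in the OE lines at both times, and it was the only member called. CYCB2-1, CYCB2-2 and 4 MCM genes were also lower in the OE lines, by 0.29 to 0.41 on the log2 scale, without a call. CYCB1-3 did not pass the filter on low values and was not tested. For the mean of both times, 1 of the 30 genes was called, where 4.06% of all probe sets tested were called, 1.89% lower. At an unadjusted p under 0.05, 16 of the 30 would count, against 8511 of the 34355 probe sets. With line as a random block the count over all probe sets was 425 in place of 1395, and CYCB1-1 kept its call.

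CYCB1-1 read 61.3 and 64.6 in OE line 2 (after and before cold, as in each pair that follows) and 65 and 69.7 in OE line 28, against 119.7 and 105.8 in the ZH11 control. All 4 OE arrays lay at or below the dim limit and both control arrays above it. The log2 difference was -0.71 (SE 0.10, limma adjusted p = 0.0118), and with the limit in place of the dim readings the gene was at least 1.48-fold lower in the OE lines. Taken singly, the difference was -0.85 (SE 0.14, limma adjusted p = 0.0656) after 6 h and -0.58 (SE 0.14, limma adjusted p = 0.0922) before cold. Without OE line 2 after cold, the mean difference was -0.70 with an adjusted p of 0.0515. In the other 16 settings the call held. None of the settings left out a ZH11 control array, since the comparison needs both, and some left out only a Huayang array. How far the call depends on the control arrays was therefore not tested. Against the Huayang wild type, CYCB1-1 read 89.4 and 104.1 in osmyb30 mutant 1 and 107.2 and 90 in mutant 2, against 79.9 and 89.5 in the wild type, so those groups overlapped.

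The helicase genes lay in the dim range on all arrays. MCM4 read 22.3 and 31.1 in OE line 2 and 24 and 25.4 in OE line 28, against 36.1 and 45.6 in the ZH11 control (difference -0.41, SE 0.12, limma adjusted p = 0.0838). MCM5 read 18.2 and 29.6 in OE line 2 and 24.2 and 29.5 in OE line 28, against 37.6 and 42.1 in the ZH11 control (difference -0.41, SE 0.10, limma adjusted p = 0.0665). In both genes the 4 OE arrays lay below both control arrays. MCM3 read 24.1 and 30.3 in OE line 2 and 29.1 and 32.2 in OE line 28, against 42.6 and 45.2 in the ZH11 control (difference -0.38, SE 0.09, limma adjusted p = 0.0512). It was called lower on the values as deposited (adjusted p = 0.0447) and after median centring (adjusted p = 0.0474). MCM2 differed by -0.29 (SE 0.13). MCM9, a relative of the helicase subunits, differed by 0.14 (SE 0.10), and its groups overlapped.

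CYCB2-1 read 27.1 and 31.4 in OE line 2 and 33.5 and 28.4 in OE line 28, against 45.4 and 42.5 in the ZH11 control, all in the dim range (difference -0.35, SE 0.10, limma adjusted p = 0.0906). CYCB2-2 differed by -0.34 (SE 0.12), with OE line 28 before cold at 45.1, close to the control at 45.9. CDKB2-1 read 108.8 and 63.1 in OE line 2 and 89 and 70.1 in OE line 28, against 115.9 and 80.5 in the ZH11 control (difference -0.24, SE 0.11, limma adjusted p = 0.234). Each of the 4 OE arrays lay below the control of its own time, without a call. PCNA differed by -0.21 (SE 0.12).

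Among the D-type cyclins 5 were lower and 3 higher, with differences from -0.39 for CYCD4-2 to 0.24 for CYCD3-1 and 0 of 8 called. CDKA-1 read 610.9 and 631.9 in OE line 2 and 624.6 and 653.5 in OE line 28, against 661.4 and 719.2 in the ZH11 control (difference -0.20, SE 0.06, limma adjusted p = 0.105). ORC4 was the only member with all 4 OE arrays above both control arrays: it read 31.4 and 39.5 in OE line 2 and 31.3 and 42.3 in OE line 28, against 26.4 and 30.9 in the ZH11 control, in the dim range (difference 0.25, SE 0.06, limma adjusted p = 0.0643). A second ORC4 probe set, below the filter on low values, overlapped. It read 9.3 and 14.6 in OE line 2 and 9.5 and 13 in OE line 28, against 9.3 and 13.2 in the ZH11 control. ORC2 differed by -0.05 (SE 0.07).

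H2B.6 read 1221.1 and 1817 in OE line 2 and 1183 and 1912.2 in OE line 28, against 1229 and 2232.8 in the ZH11 control. The ZH11 control before cold was the highest of the 6 unchilled arrays. The gap before cold was -0.33 (SE 0.08, limma adjusted p = 0.0922), that after 6 h was -0.05, and the mean difference was -0.19 (SE 0.06, limma adjusted p = 0.0919). The difference in cold response between OE and control, an interaction term, was above 0 for all 5 H2B genes, from 0.14 to 0.36, with the same control arrays behind each. None of the members was called for that interaction in limma, and 3 of 30 (H2B.5, H2B.6 and H2B.10) had an unadjusted p under 0.05. No probe set of the array was called for it, and 1401 had an unadjusted p under 0.05.

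Of the 30 genes, 10 (33.3%) had all 4 OE arrays below both ZH11 control arrays, against 11.4% of all probe sets tested. They were CDKA-1, CYCA2-1, CYCB1-1, CYCB2-1, CYCD4-1, CYCD5-1, MCM2, MCM3, MCM4 and MCM5. In the other direction it was 1 gene (3.33%), against 10.6%. The median of the 30 genes was -0.18, with 22 below 0, and that of all probe sets was -0.004. The members' median was -0.13 on the values as deposited, where that of all probe sets was 0.02, and -0.09 after median centring, where it was 0.06. It was -0.05 with the filter at the 60th percentile, which keeps fewer dim genes. The 4 OE arrays come from 2 lines and share the same 2 control arrays. After 6 h alone, 0 of 30 were called in limma (9 at an unadjusted p under 0.05), where 0.311% of all probe sets were. Before cold, 0 were called (10 at an unadjusted p under 0.05), where 0.571% were. Of the 34355 probe sets, 7256 had an unadjusted p under 0.05 before cold and 3485 after 6 h.

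**Figure D4:**
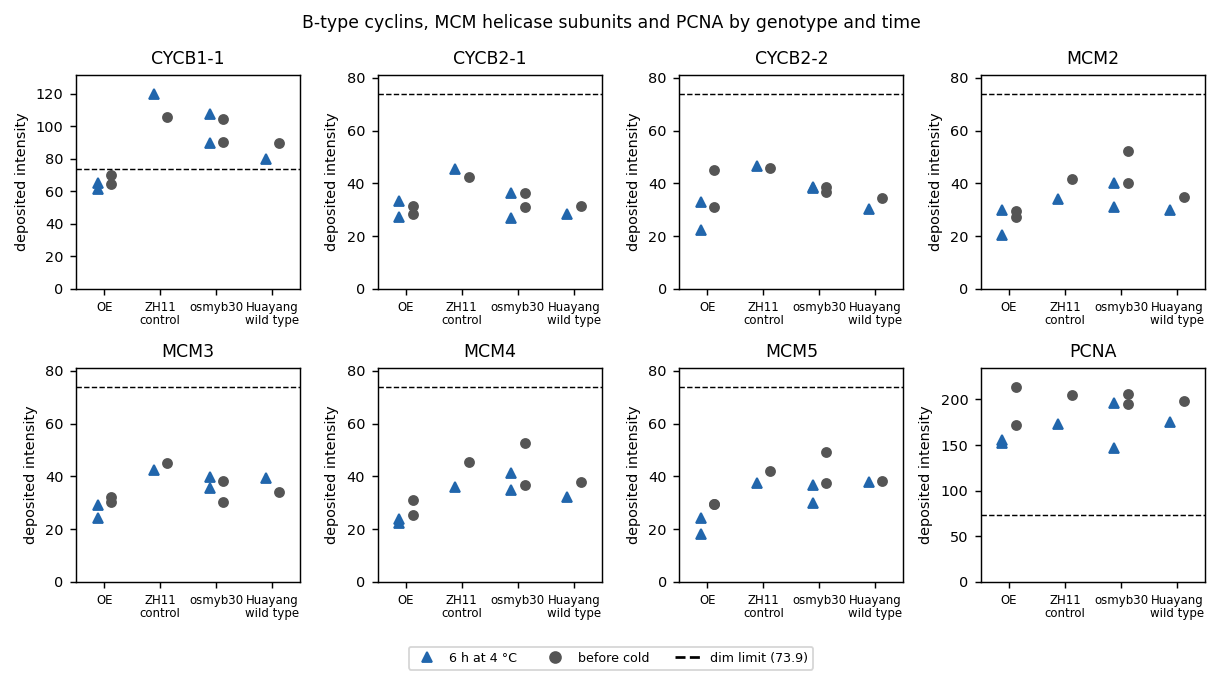
Deposited intensity (axes from 0) of 3 B-type cyclins, 4 MCM genes and PCNA by genotype; triangles are arrays after 6 h at 4 °C, circles are arrays before cold, and the dashed line is the dim limit of 73.9. The 4 OE arrays of CYCB1-1 lie below the limit and the 2 ZH11 control arrays above it, while the MCM genes and the other cyclins lie below it everywhere.

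Other lists in the same comparison are given beside these values. Of 24 other cell cycle regulators, 0 were called higher and 2 lower, CKS1, a small subunit of the kinase, by 0.32 (SE 0.07, limma adjusted p = 0.0496) and KRP1, a kinase inhibitor, by 0.37 (SE 0.08, limma adjusted p = 0.0444), and their median was -0.02. Of 14 other replication genes none was called in limma, 2 had an unadjusted p under 0.05, and their median was 0.09. Of 17 expansin genes none was called in limma (7 at an unadjusted p under 0.05), 16 were below 0, and their median was -0.23. The expansin sum was 9946.4 to 17602 in OE lines, against 13412 and 20224 in the control.

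Of 23 housekeeping genes 2 were called lower, ACT2 by 0.51 (SE 0.06) and ACT3 by 0.42 (SE 0.06), and their median was -0.14. That of the 5 green leaf genes was 0.00, that of the 5 root genes 0.12 and that of the 15 young tissue genes -0.02, with GRF6 called lower by 0.59 (SE 0.13). The part of these in the members' values was not tested.

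**Figure D5:**
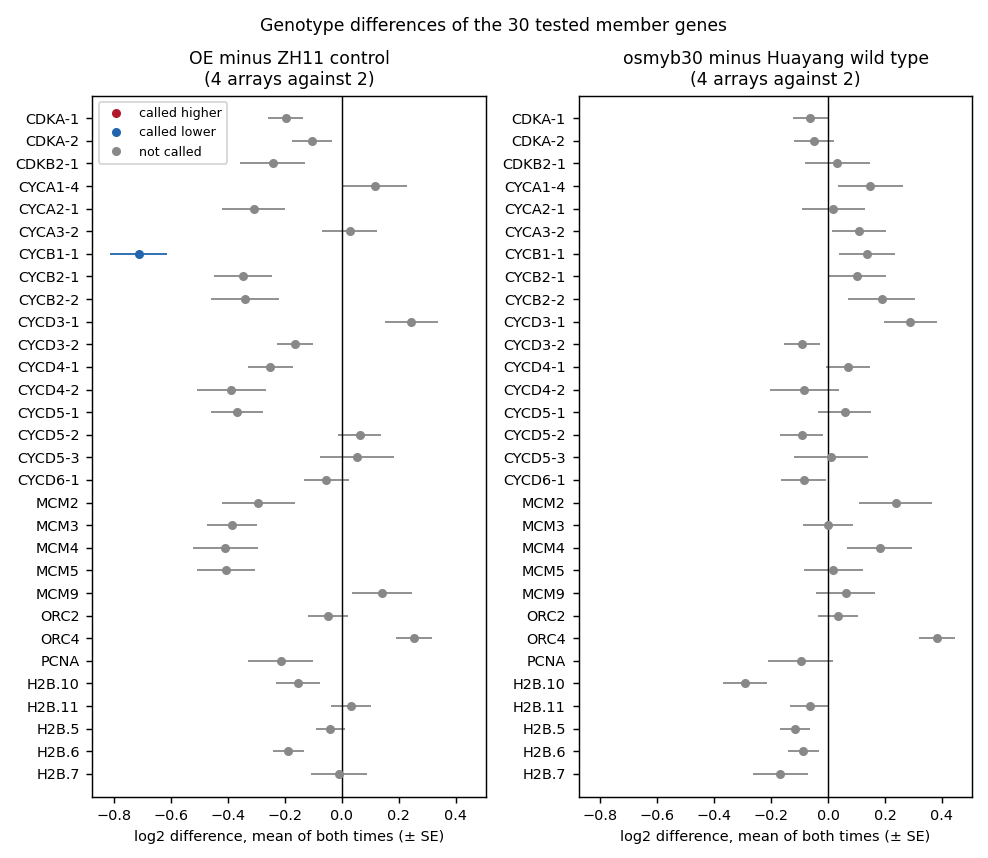
Log2 difference with its SE for the 30 tested genes, as the mean of both times, in OE minus ZH11 control (left) and osmyb30 minus Huayang wild type (right), 4 arrays against 2 in each. CYCB1-1 at -0.71 in the left panel is the only point called; the right panel runs from -0.29 for H2B.10 to 0.38 for ORC4 with no call.

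In the osmyb30 mutants, no member differed from the Huayang wild type past the threshold. ORC4, of the origin recognition complex, was the highest and H2B.10 the lowest. For the mean of both times 0 of 30 genes were called in limma (3 at an unadjusted p under 0.05), where 0.0262% of all probe sets were, 9 in all. After 6 h it was 0 (4 at an unadjusted p under 0.05), where 0.0204% were, and before cold 0 (3 at an unadjusted p under 0.05), where 0.00291% were. For the interaction with cold it was 0 of 30 (2 at an unadjusted p under 0.05), and 0 of all probe sets (1006 at an unadjusted p under 0.05). Of the 34355 probe sets, 4310 had an unadjusted p under 0.05 for the mean of both times, 3271 after 6 h and 1736 before cold. The marker reading in the library labelled Huayang wild type lay between that of the ZH11 control and that of osmyb30. Whether that library holds RNA of plants with the marker was not tested. If osmyb30 RNA were mixed into it, the differences given here would be smaller than those between the unmixed genotypes.

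ORC4 read 37.9 and 42.3 in osmyb30 mutant 1 and 38.7 and 45.5 in mutant 2, against 26.9 and 30.1 in the Huayang wild type. All 4 mutant arrays lay above both wild type arrays, in the dim range, with a difference of 0.38 (SE 0.06, limma adjusted p = 0.172). A second ORC4 probe set, below the filter on low values, overlapped. It read 13.2 and 11.2 in mutant 1 and 10.7 and 15.8 in mutant 2, against 11.5 and 13.1 in the wild type. H2B.10 read 338.1 and 530.2 in mutant 1 and 287.6 and 496.8 in mutant 2, against 370.8 and 588.7 in the wild type. It was lower in each mutant at each time (difference -0.29, SE 0.08, limma adjusted p = 0.275). CYCD3-1 read 102.6 and 125.2 in mutant 1 and 121.2 and 126.9 in mutant 2, against 75.9 and 108.8 in the wild type (difference 0.29, SE 0.09, limma adjusted p = 0.316).

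The markers of dividing cells overlapped between osmyb30 and the wild type. MCM4 read 41.5 and 52.7 in mutant 1 and 35 and 36.8 in mutant 2, against 32.4 and 37.8 in the wild type (difference 0.18, SE 0.12). MCM5 differed by 0.02 (SE 0.10) and CDKB2-1 by 0.03 (SE 0.11), H2B.6 by -0.09 (SE 0.06) and CYCB1-1 by 0.14 (SE 0.10). The median of the 30 genes was 0.02, with 17 above 0. CYCA1-4, CYCB2-2 and ORC4 had all 4 mutant arrays above both wild type arrays (10% of the 30, against 6.14% of all probe sets), and no member had them all below (against 7.81%).

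Lists of other genes showed no call in this comparison in limma either. The medians were 0.01 for other cell cycle regulators (2 of 24 at an unadjusted p under 0.05), 0.07 for other replication genes (0 of 14) and -0.07 for expansin genes (1 of 17). They were -0.02 for housekeeping genes (3 of 23), 0.02 for young tissue genes (0 of 15), 0.06 for root genes (0 of 5) and -0.02 for green leaf genes (0 of 5).

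Last, ZH11 lines were set beside Huayang lines, as the mean of both times. These differ in cultivar and in the transgenic or mutant lines they hold. MCM9 and H2B.10 were called higher in ZH11 lines, 2 of 30 genes, where 16.6% of all probe sets were called, 7.86% higher. MCM9 (LOC4340503), which in animals acts with MCM8 in DNA repair, read 100.1, 108.55 and 146.9 in ZH11 lines, against 81.6, 86 and 104.1 in Huayang lines. The difference was 0.32 (SE 0.07, limma adjusted p = 0.00819), and a second MCM9 probe set was called with 0.32 too. After normalization the 6 ZH11 arrays lay above the 6 Huayang ones, as in 2.37% of all probe sets. Without both Huayang wild type arrays the brightest MCM9 probe set lost its call (0.30, limma adjusted p = 0.0503). The second MCM9 probe set lost its call there too.

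H2B.10 read 405.1, 511.75 and 700.6 in ZH11 lines, against 287.6, 433.8 and 588.7 in Huayang lines, sets that overlapped. Its difference was 0.30 (SE 0.09, limma adjusted p = 0.0314), was not called with line as a random block (adjusted p = 0.074), and was lost in 9 of 20 other settings. CYCA1-4 differed by -0.08 (SE 0.08). Of the MCM genes in the dim range, MCM2, MCM4 and MCM5 differed by -0.22 (SE 0.10), -0.26 (SE 0.11) and -0.25 (SE 0.10), without a call. Among the lists, 8 of 17 expansin genes and 4 of 23 housekeeping genes were called higher in ZH11 lines.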

How the data were processed

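The series holds 12 GeneChip arrays of biotin-labelled total RNA, read from TRIzol extracts per the labels' protocols. The deposited values are linear intensity readings, 1 per probe set; how probes were summarised and scaled is not given in the sources used here. The array has 57381 probe sets, of which 123 controls were left out. The 64 reporter probe sets were not among those left out and went through the same filter as the rest. The platform annotation paired 22436 probe sets with 1 gene and 95 with several. Gene IDs were named through the RefSeq table (assembly ASM3414082v1), used for names and neighbours only.

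Intensities were taken as log2(value + 16) and, because array quartiles differed by up to 0.238, above a limit of 0.2, quantile normalized. The tests took in the 34355 probe sets whose mean reached the 40th percentile. Models were fitted with limma 3.58.1 (lmFit, eBayes with trend) in R 4.3.3 and checked on simulated data. The simulated arrays were drawn independently, so that check does not cover the correlation between arrays of a line. A call is a Benjamini-Hochberg adjusted p below 0.05. Genotypes were compared in a fit of 8 means (genotype by time, 4 residual df), cold and cultivar in a fit of 4 means (cultivar by time, 8 residual df). Each line was sampled at both times, and a line's deviations from its group means correlated at 0.517 in OE lines and 0.429 in osmyb30, so fits with line as a block were run beside these. The number of arrays limits the precision.

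The members and lists were chosen with earlier results of these data known. Named with full values were the markers, each called gene and the brightest gene of a family; other genes given by name were chosen after their values were seen. Names of other families that a list's prefix caught were left out before fitting, and a list of other histones matched no gene. The dim limit was chosen after the data were seen. Promoters and proteins were not analysed here.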

Additional observations from a re-analysis of the deposited data

Results flagged for a closer look

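Among the 20 genes named by rule, each with 6 arrays before cold and 6 after, 40 sets of arrays were searched for a reading that stands apart by Dixon's test, which chance flags in about 1 of 20 sets. It flagged 1. H2B.6 before cold read 2232.8 in the ZH11 control, next to 1912.2 for the nearest array (OE line 28) and 1760.4 for the lowest (osmyb30 mutant 2), a gap of 0.679 of the whole range, above the 95% critical value for 6 arrays. This array is the only ZH11 control before cold.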

How the results depend on the processing

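The counts of member probe sets called moved by more than 1.5 times in a few settings; the cause was not tested. In OE minus ZH11 control (main count 1) the count was 2 with values as deposited and 2 with median centring. It was 0 to 1 when 1 array at a time, other than a ZH11 control, was left out. The 0 was without OE line 2 after cold. Cold in ZH11 lines gave 16 with line as a fixed replicate block in place of 10, and 10 to 12 with 1 array left out. ZH11 minus Huayang lines gave 1 without both wild type arrays in place of 3, and 2 to 4 with 1 array left out. With 1 array left out, cold gave 10 to 12 in all lines and 9 to 11 in Huayang lines, and the other comparisons 0. Of the values of the 5 markers of dividing cells and of the genes called in each comparison, 1008 kept their side of the threshold, 38 lost a call and 5 gained one. With a call in the main or the other setting, 0 changed direction. Changes of direction without a call were not counted. Over all members and comparisons, 56 calls were gained across settings by the brightest probe sets of 17 genes. Over all probe sets, calls in cold rose with line as a random block to 12060 in ZH11 and 10892 in Huayang (main 6874 and 6621), the test of their difference gave 152 in place of 35, and the cultivar comparison gave 3790 in place of 5696. Before cold, OE calls were 621 after median centring and 320 as deposited, in place of 196; with that centring the median of all probe sets was 0.10. Dim signal limits the ORC genes (4 of 5 dim on all arrays), MCM genes (7 of 8) and B-type cyclins (3 of 4).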

Other observations

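Of the genes below the filter, MCM7 (-0.25, SE 0.06, limma adjusted p = 0.0132), CYCB1-3 (-0.16, SE 0.04, adjusted p = 0.0123) and ORC1 (-0.14, SE 0.04, adjusted p = 0.0188) were called lower after cold when no filter was used, all with readings far below the dim limit. MCM7 read from 13.5 to 24.3 over the 12 arrays. Without the filter, CYCD3-1 (limma adjusted p = 0.0593) and CYCD3-2 (limma adjusted p = 0.0633) lost their calls. The share of all probe sets called without the filter is not given here. CYCD4-2, a D-type cyclin, differed by -0.42 after cold in ZH11 lines and was called there with line as a random block (adjusted p = 0.0103).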
